A study of Mus musculus with 13 samples.

Results

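The heat shock and unfolded protein response genes described here are 35 transcripts, chosen by symbol, out of 23857 gene symbols that the 12 immunopurified libraries share. They are 6 cytosolic HSP70 and HSP110 proteins, 2 cytosolic HSP90 proteins, 1 small heat shock protein, 2 cytosolic J-domain co-chaperones, 3 mitochondrial chaperones, 5 chaperones, 4 co-chaperones and 4 disulfide isomerases of the endoplasmic reticulum (ER), 3 stress sensors, 4 transcription factors and Herpud1, which acts in ER-associated degradation. All 35 symbols were found in every library. The samples were pools of medial habenula from adult mice (Mus musculus) that carry the Chat-TRAP DW167 transgene. This transgene puts a GFP tag on ribosomes of cells that use the Chat promoter, the cholinergic ones, and beads with anti-GFP recover those polysomes and their mRNA (translating ribosome affinity purification). Per the labels, 6 immunopurified (IP) libraries were Gpr151-KO::Chat-TRAP DW167 and 6 IP libraries were Chat-TRAP DW167 without the knockout (wild type below), and 1 input library held total RNA of the Chat-TRAP homogenate. Both genotypes and the input carry the transgene. Each library pooled 4 mice, or 3 mice for libraries 855 and 852. The labels give no treatment, although saline stands in most table names and saccharin in the name of the input's table. Gpr151 is an orphan receptor of the habenula, which the series title links with nicotine intake and with synaptic plasticity.

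The heat shock response and the unfolded protein response are transcription programmes that raise the cell's supply of protein-folding helpers. In the cytosol, unfolded protein draws HSP70 and HSP90 away from heat shock factor HSF1, which then binds heat shock elements in the promoters of chaperone genes. In the ER, unfolded protein occupies the HSP70 protein Hspa5 (BiP), and the membrane sensors Ern1 (IRE1), Eif2ak3 (PERK) and Atf6 then signal. Ern1 splices the Xbp1 mRNA, Eif2ak3 slows translation while translation of Atf4 increases, and cleaved Atf6 enters the nucleus. The factors so produced act on ER stress elements in the promoters of ER chaperone genes. Neurons use the same machinery for receptors and ion channels that fold in the ER.

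Known elements of these programmes were searched in the members' promoters. RefSeq windows on GRCm38.p6, reaching 250 bases before and 50 after the transcript start, were matched for 28 of the 35 members. The ER stress element (ERSE) was searched as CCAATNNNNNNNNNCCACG on both strands. It occurred in 6 members (21.4% of those matched), against 37 of 27025 genes (0.137%). All 6 belong to the ER folding group, of which 12 members had a window. The capitals mark the element and the flanks are 15 bases, printed on the strand of the gene.
Hspa5, chr2:34772010-34772058, plus strand: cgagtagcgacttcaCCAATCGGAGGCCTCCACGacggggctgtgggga
Hsp90b1, chr10:86705518-86705566, minus strand: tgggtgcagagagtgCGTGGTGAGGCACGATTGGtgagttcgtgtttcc
Hsp90b1, chr10:86705623-86705671, minus strand: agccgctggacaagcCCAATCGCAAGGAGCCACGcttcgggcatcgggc
Calr, chr8:84847060-84847108, minus strand: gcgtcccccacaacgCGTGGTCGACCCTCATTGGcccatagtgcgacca
Canx, chr11:50325785-50325833, minus strand: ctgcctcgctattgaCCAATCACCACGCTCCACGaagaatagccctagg
Dnajc3, chr14:118937812-118937860, plus strand: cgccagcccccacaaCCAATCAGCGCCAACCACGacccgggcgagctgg
Pdia6, chr12:17266476-17266524, plus strand: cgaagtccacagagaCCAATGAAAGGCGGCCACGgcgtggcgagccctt
The Calr element and the nearer Hsp90b1 element read on the opposite strand of the gene. The nearest to a start was that of Hspa5, which began 65 bases before it, and the farthest was the second Hsp90b1 element, 212 bases before the start.

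Other motifs were searched in the same windows. The related ERSE-II, whose letters are the capitals of the Herpud1 sequence below with any base at the sixth position, occurred in Herpud1 and Dnajb11, 7.14% of matched members against 0.0444% of all genes. A heat shock element of 3 units, searched as GAANNTTCNNGAA on both strands, occurred in Hspd1, Hspe1 and Hsph1, 10.7% of matched members against 0.662% of all genes. The Hsph1 match lies at positions 16 to 28 after a transcript start. No match was found in the windows of Hspa1a, Hspa1b, Hspa2, Hspa4, Hspb1, Dnaja1 and Dnajb1, the other cytosolic chaperones and co-chaperones with a window. The search allowed no mismatch, so imperfect heat shock elements were not looked for, and these genes may hold them. Hspd1 and Hspe1 encode the mitochondrial HSP60 and its HSP10 partner and are transcribed away from each other. Their windows share 285 bases, and the same element lies in both; it holds 2 overlapping matches and is shown here from the Hspe1 side with Herpud1.
Herpud1, chr8:94386362-94386402, plus strand: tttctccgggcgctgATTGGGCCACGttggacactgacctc
Hspe1, chr1:55088044-55088091, plus strand: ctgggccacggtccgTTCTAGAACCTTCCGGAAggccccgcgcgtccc
The UPRE core TGACGTG was found in Hspa5 alone among matched members, and in 2.22% of all genes. No matched member held the ATF4 composite core TGATGNAAT, which 1.08% of all genes hold. Hspa8, Hsp90aa1, Hsp90ab1, Hspa9, Hyou1, Atf6 and Hsf1 had no entry in the table. These matches are descriptions of letters in a window. The elements were picked as known parts of these programmes and the members as their genes, so the higher shares among members are no test.

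Libraries held 32623249 to 64388596 gene counts in the KO IP group, 28375912 to 58502055 in the wild-type IP group and 54701790 in the input. Levels are CPM, counts scaled by the total of the counts over the 22682 symbols that all 13 libraries share, which leave out the ribosomal RNA precursor Rn45s. A count of 0 allows up to 3 counts, or 0.0502 to 0.121 CPM in an IP library, counting error only. Gpr151 itself lay between 121 and 212 CPM in the KO libraries, against 382 to 589 CPM in the wild-type libraries, so every label was borne out by the targeted gene. All 14 cholinergic medial habenula markers were enriched over input by the rule described with the input comparison. Library numbers fall into 3 sets with both genotypes in equal number: 683 with 682, 855 with 852, and 1099 to 1102 with 1091 to 1094. The last set, called later here, was counted on a list of 24454 symbols and the other 4 IP libraries, called earlier, on one of 32531. Markers of astrocytes, oligodendrocytes, microglia and endothelium differed widely between libraries. Their mean log2(CPM + 1), called the non-neuronal score, was 3.89 in KO library 1099, 3.67 in KO library 1102 and 3.34 in wild-type library 1091, and 2.04 to 2.91 in the other 9 IP libraries. None of the 40 markers was at 0 in every IP library, and 8 (Aif1, Trem2, Cldn5, Tek, Slco1a4, Ly6c1, Emcn and Cdh5) were at 0 in at least 1. GABAergic neuron markers, outside the score, summed to 328, 268 and 156 CPM in 1099, 1102 and 1091, against 17.2 to 177 CPM in the other 9. Choroid plexus markers, also outside it, summed to 100, 116 and 133 CPM there, against 117 to 163 CPM. The score's name thus describes the markers used and is no measure of all non-neuronal cells.

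Of all members, Hsp90ab1, the HSP90 protein that is made without stress, had the highest mean level per length of exon, 721 ± 344 CPM per kilobase in KO IP and 685 ± 213 CPM per kilobase in wild-type IP (SD, n = 6 each). Hsp90b1, the ER form of HSP90 (GRP94), came next in the wild type, with means of 151 in KO IP and 130 in wild-type IP. Atf4, Hspa8 and Hsph1 followed in the wild type, at 124, 132 and 141 CPM per kilobase in KO IP and 126, 115 and 113 in wild-type IP. Hspa8 is the constitutive HSP70 and Hsph1 the HSP110 protein that acts as its nucleotide exchange factor. The highest transcript stood clear of the next, since the wild-type ranges of Hsp90ab1 and Hsp90b1 do not overlap, but of the 34 pairs of neighbours in the wild-type order 31 overlap.

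The 4 lowest members in the wild type were Hspa1b, Hspb1, Ern1 and Hspa1a. Hspa1b, an inducible HSP70, averaged 0.319 ± 0.279 CPM per kilobase in KO IP and 0.253 ± 0.226 in wild-type IP, and its near-identical neighbour Hspa1a 1.89 ± 0.652 in KO IP and 1.26 ± 0.470 in wild-type IP (SD, n = 6 each). Hspb1 (HSP25), a small heat shock protein, averaged 0.367 ± 0.303 in KO IP and 0.263 ± 0.128 in wild-type IP, and its lowest library held 2 counts. The RNase sensor Ern1 was at 0.756 ± 0.175 in KO IP and 0.803 ± 0.116 in wild-type IP. Hspa1a and Hspa1b lie next to each other on chromosome 17 (34969190 to 34972156 and 34956436 to 34959238, GRCm38). Of all 50-base windows, 58.8% of those of Hspa1a also occur in Hspa1b and 62.3% of those of Hspa1b in Hspa1a, so reads may have been divided or dropped between them and each value is uncertain.

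**Figure D1:**
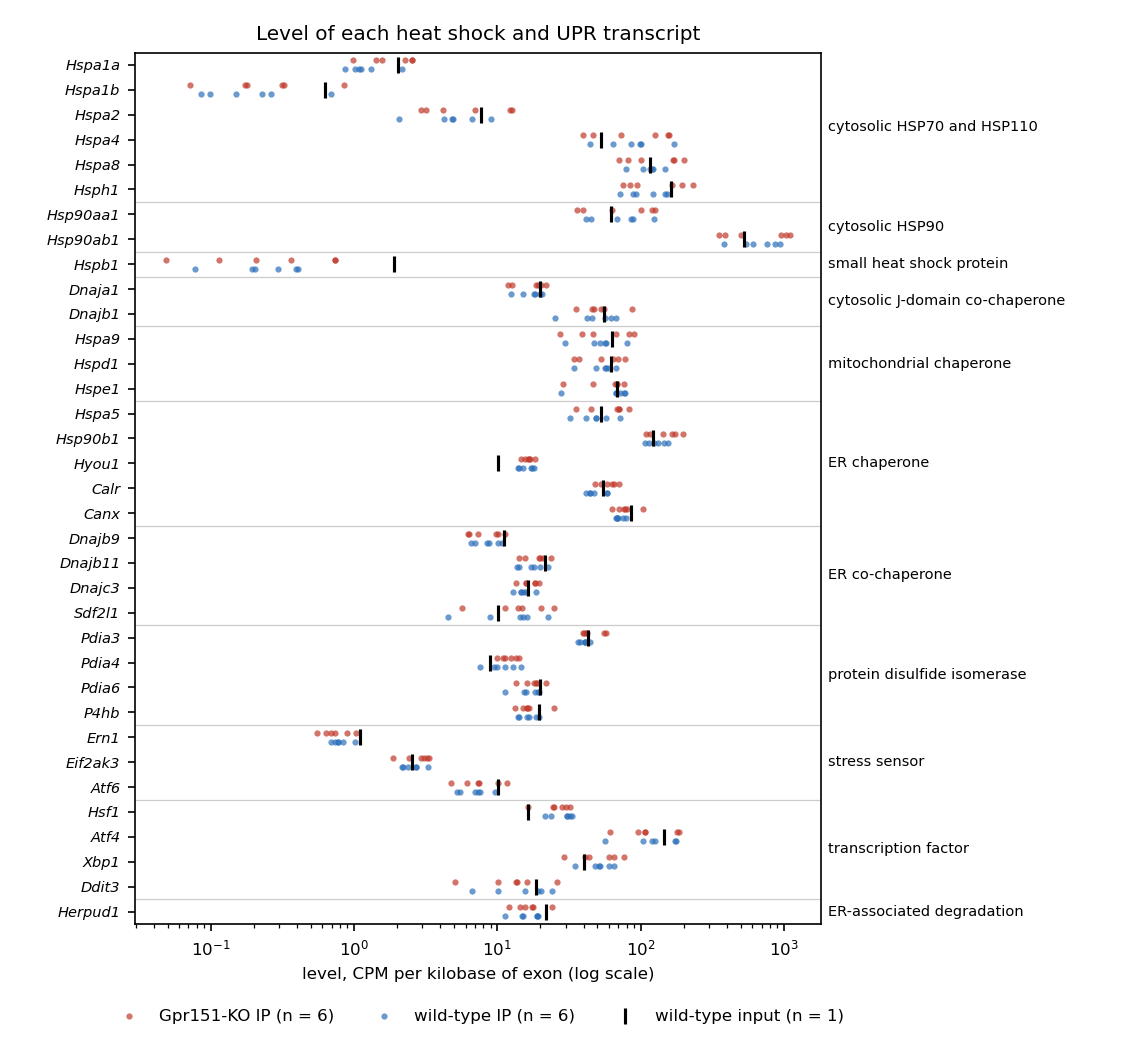
Level of each of the 35 members in CPM per kilobase of merged exon (log scale), 1 point per library, with 6 Gpr151-KO IP libraries above 6 wild-type IP libraries and the single input as a black bar. Hsp90ab1 stands highest, at a mean of 721 in KO IP and 685 in wild-type IP, and Hspa1b and Hspb1 lowest.

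The 35 members varied between libraries to very different degrees. In summed CPM they took 4236 to 8366 in KO IP libraries, 4307 to 6886 in wild-type IP libraries and 5502 in the input, or 0.424% to 0.837% of the counts in KO IP and 0.431% to 0.689% in wild-type IP. Hyou1 (ORP150), an ER relative of HSP110, was the steadiest, its highest IP library being 1.31 times its lowest. Dnajc3 (p58IPK), an ER J-domain protein, followed at 1.51 times. Among the members above 5 CPM on average, Hspa2 spread most, at 6.12 times, followed by Sdf2l1, a partner of ER J-domain proteins, at 5.56 times and Ddit3 (CHOP), the late factor of the PERK arm, at 5.14 times. The ER chaperones thus spread less between libraries than the cytosolic HSP70 and HSP90 transcripts, whose largest ratios were 2.85 to 11.9 and 3.15 to 3.54, while those of the 5 ER chaperones were 1.31 to 2.60.

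Between genotypes, no member passed the threshold. Across all genes edgeR's quasi-likelihood test with the library set as a term called 2 of 14317 genes at an adjusted p below 0.05 (0.0140%), Gpr151 at a log2 fold change of -1.63 ± 0.17 (SE, adjusted p = 0.00592, lower in 6 of 6 KO libraries) and the neuropeptide gene Oxt. It called 0 of 35 members, and DESeq2, which called 12 genes (0.0838%), also called 0. At an unadjusted p below 0.05 edgeR gave 3 members (8.57%) against 438 genes in all (3.06%). In no member were the KO and wild-type libraries apart without overlap, which was so for 17 genes (0.119%). Member fold changes ran from -0.20 to 0.62 on the log2 scale, and the 95% intervals of 31 members lay wholly within 1 of 0. Intervals reached as far as -1.09 and 1.80, both for Hspb1, so at these counts a large change of that transcript could not be seen.

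The 3 members with an unadjusted p below 0.05 were ER or inducible chaperones. Hspa5, the ER HSP70 and the protein that the ER sensors watch, had 132, 261 and 313 CPM (lowest, median, highest) in KO IP, against 120, 183 and 269 CPM in wild-type IP. Its log2 fold change was 0.32 ± 0.12 (SE, adjusted p = 0.999 by edgeR), with an interval of 0.06 to 0.57. Calr, calreticulin, which holds newly made glycoproteins in the ER, had 105, 131 and 153 CPM in KO IP, against 91.0, 100 and 127 CPM in wild-type IP, a log2 fold change of 0.30 ± 0.11 (SE, adjusted p = 0.999 by edgeR). For both the medians differ while the ranges overlap. Hspa1a had 2.90, 5.68 and 7.55 CPM in KO IP, against 2.55, 3.27 and 6.44 CPM in wild-type IP, a log2 fold change of 0.62 ± 0.28 (SE, adjusted p = 0.999 by edgeR). Its highest wild-type value was library 1094, above 3 of the KO libraries. On the strand opposite to Hspa1a, the annotation places Gm20481 over 19.0% of its exon.

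The next members by p were also of the ER. Hsp90b1 had a log2 fold change of 0.22 ± 0.11 and Pdia3 (ERp57), which works with calreticulin on glycoproteins, one of 0.21 ± 0.11, with intervals that include 0. All 6 members with an ERSE had a fold change above 0, from 0.12 for Pdia6 to 0.32 for Hspa5 (median 0.19). Of the 6 ER folding members whose window held none, 5 were above 0, with a range of -0.01 to 0.21 (median 0.14). These values overlap, and none passed the threshold. Other large fold changes among the members were in low transcripts: 0.41 ± 0.33 for Hspa2, 0.36 for Hspb1 and 0.35 ± 0.50 for Hspa1b, each with an interval that spans 0.

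Signs leaned one way without a call. Of the 35 members 29 (82.9%) had a fold change above 0, against 50.4% of all genes tested, and the median was 0.12, against 0.00 for all genes. All 6 cytosolic HSP70 and HSP110 members, both cytosolic HSP90 members and 12 of 13 ER folding members were above 0, and 3 of 4 transcription factors were below it. The non-neuronal markers leaned the same way, with all 10 astrocyte and all 10 oligodendrocyte markers above 0 (medians 0.82 and 0.79) and none called. Of the tested microglia and endothelial markers 6 of 8 were above 0 in each list, and of the GABAergic neuron markers 7 of 7 (median 1.16), none called. All 14 cholinergic markers were below 0 (median -0.15), of which only Gpr151 was called. In such bulk samples, fewer cells of a type and less RNA per cell cannot be told apart. When the non-neuronal score entered the model, 21 of 35 members were above 0 and the median was 0.09. Without libraries 1099, 1102 and 1091, 19 of 34 members were above 0, with a median of 0.03. The lean was mostly that of the later set: 27 of 35 members were above 0 in the later libraries only (median 0.19). In the earlier libraries only it was 19 of 33 (median 0.03). All members were read in the same libraries, so these counts of signs are not independent and are no test.

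**Figure D2:**
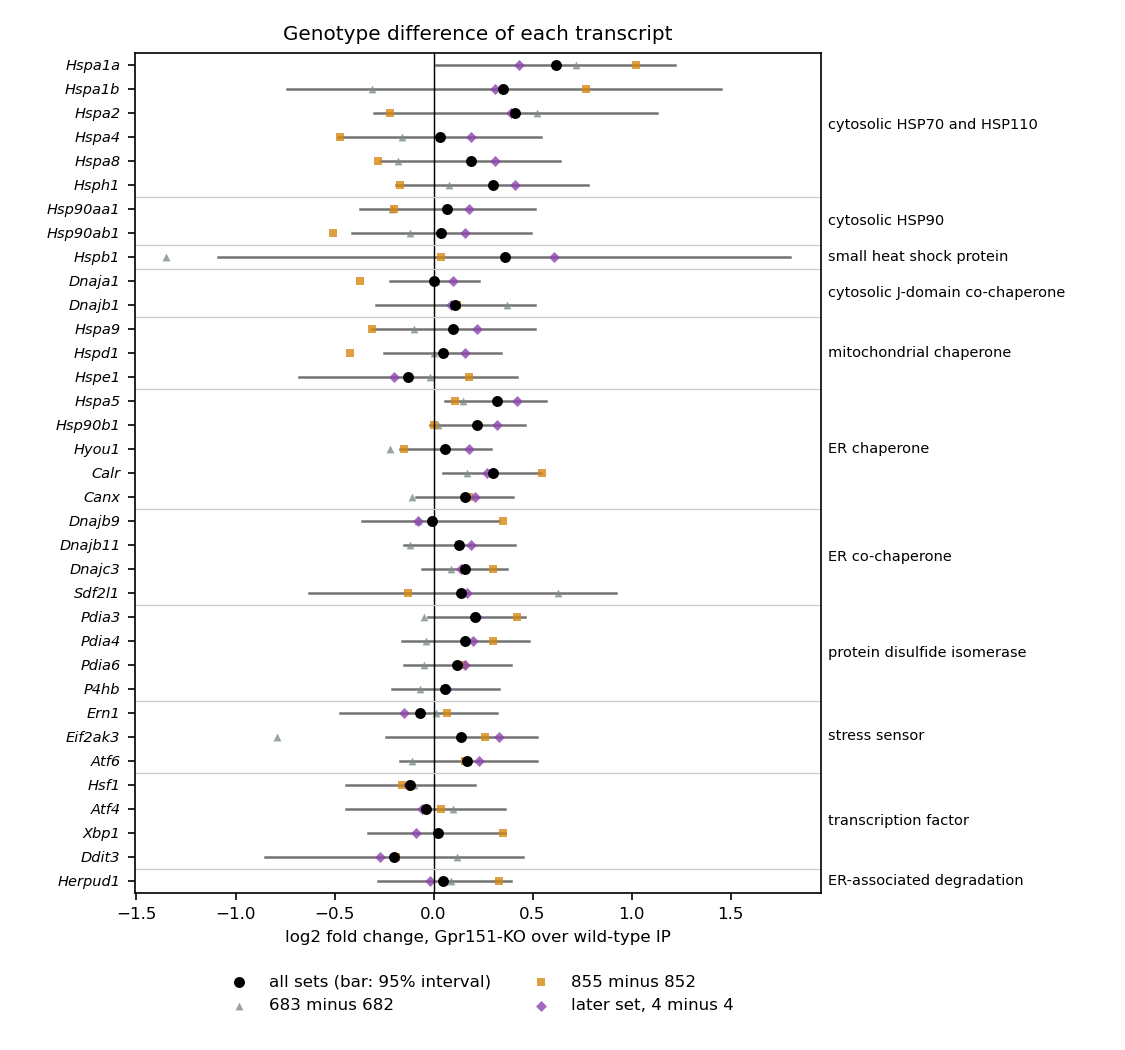
Log2 fold change of each member, Gpr151-KO over wild-type IP: black points and 95% intervals from the fit over 6 and 6 libraries, coloured marks from each library set alone (CPM scaled by TMM factors). Most black points sit right of 0, between -0.20 and 0.62, and the 3 sets often lie on different sides of 0.

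Set by set, the genotype difference was rarely in 1 direction. For this comparison, CPM were scaled by the TMM factors of the fit, so that the values differ slightly from the levels given above. Differences in log2(scaled CPM + 0.1), KO minus wild type, had the same sign in all 3 sets for 6 members. Hspa1a, Dnajb1 (HSP40, which hands clients to HSP70), Hspa5, Calr and Dnajc3 were higher in KO in each set, 14.3% of members against 12.0% of all genes. Hsf1, the heat shock factor, was lower in each set, 2.86% of members against 11.7% of all genes. For Hspa5 the difference was 0.15 in library 683 minus 682, 0.11 in 855 minus 852 and 0.42 in the later set. For Calr it was 0.17, 0.55 and 0.27 in the same order. The share of members higher in each set was thus near that of all genes. On CPM without these factors Hsp90b1 was also higher in each set, at 0.02, 0.02 and 0.29, which made it 6 of 35 members, against 1578 of 14317 genes. Within the later set, 4 KO against 4 wild-type libraries, an exact permutation test (two-sided, smallest possible p 0.0286) gave p = 0.0857 for Hspa5 and for Calr and p = 0.0571 for Hsp90b1. No member fell below 0.05, where 1.64% of all genes did. The first 2 sets hold 1 library of each genotype and allow no test.

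The 2 cytosolic HSP90 transcripts had differences of either sign. Hsp90ab1 differed by -0.12 and -0.51 on the log2 scale in the earlier sets, KO minus wild type, and by 0.16 in the later set. Hsp90aa1, the stress-inducible HSP90, differed by -0.21, -0.20 and 0.18. The interaction of genotype with later against earlier libraries, tested by edgeR, was called for 0 of 15498 genes (0%) and 0 of 35 members. At an unadjusted p below 0.05 there were 400 genes (2.58%) and 0 members, and DESeq2 called 2 genes, neither a member. Eif2ak3, the PERK kinase, had the smallest interaction p among members, with a log2 difference of 0.60 ± 0.35 (SE, adjusted p = 1.00 by edgeR).

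The sets themselves differed far more than the genotypes. The later against the earlier IP libraries were compared by edgeR with genotype as a term, which describes the members across sets and is no biological contrast. The sets differ in the gene list used for counting, in Rn45s (2.25% to 8.77% of counts in the later libraries, 10.8% to 12.6% in the earlier) and in the share of alignments that were not unique (at most 39.2% later and at most 53.2% earlier, without overlap). These cannot be told apart from any difference between the animals. Of 14801 genes 1817 (12.3%) were called higher and 1499 (10.1%) lower. Of the 35 members 13 (37.1%) were called higher and 2 (5.71%) lower. By complete separation of the libraries, 8 members (22.9%) were higher in the later set, against 6.20% of all genes, and 1 (2.86%) was lower, against 7.47%.

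Cytosolic and mitochondrial chaperones made up most of the members that were higher. Hsp90aa1 had 213, 318 and 428 CPM (lowest, median, highest) in the 8 later libraries, against 121, 134, 141 and 152 CPM in the 4 earlier ones (683, 855, 682 and 852, an order kept below). The groups do not overlap, and its log2 fold change was 1.32 ± 0.22 (SE, adjusted p = 0.00184 by edgeR), the smallest p of the members. Hspa4, an HSP110 protein, had 335, 522 and 785 CPM in the later libraries, against 182, 216, 204 and 296 CPM in the earlier ones, a log2 fold change of 1.37 ± 0.26 (adjusted p = 0.00494). These also stand apart, as do Dnaja1, a J-domain partner of HSP70 (0.64 ± 0.11), and Hspd1 (0.76 ± 0.16). Hsp90ab1 had 1265, 2289 and 2780 CPM in the later libraries, against 882, 979, 965 and 1372 CPM in the earlier ones, a log2 fold change of 1.08 ± 0.23 (adjusted p = 0.00861). Its lowest later library, 1100, lies below the highest earlier one, 852. Hspa9 (mortalin), which pulls proteins into mitochondria, rose by 0.96, Hsph1 by 0.93, Hspa2 by 1.13 and Hspa1b by 1.85, all with overlapping groups. Hspb1, at 1.00 ± 0.74 (adjusted p = 0.325), and Hspa8, at 0.62 ± 0.24 (adjusted p = 0.0754), did not pass. On Dnaja1, other annotated genes cover 11.8% of the exonic bases.

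ER folding members were split. Hspa5 had 182, 261 and 313 CPM in the later libraries, against 132, 170, 120 and 156 CPM in the earlier ones, without overlap, and rose by 0.79 ± 0.14 (SE, adjusted p = 0.00331 by edgeR). Hsp90b1 rose by 0.51, although other annotated genes cover 21.6% of its exonic bases, and the disulfide isomerase P4hb by 0.41. The other 10 of the 13 ER folding members were not called, 7 of the 13 were below 0, and their median was 0.00. The pair that works on glycoproteins is among them, with log2 fold changes of -0.17 ± 0.12 for Calr and 0.21 ± 0.12 for Canx.

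Of the 4 transcription factors, Atf4 and Xbp1 were called lower, while Ddit3, at -0.62 ± 0.32 (SE, adjusted p = 0.168 by edgeR), and Hsf1, at -0.19 ± 0.15 (adjusted p = 0.364), did not pass. Atf4, the factor of the PERK arm, had 97.2, 182 and 219 CPM in the later libraries, against 323, 311, 303 and 299 CPM in the earlier ones. Every later library lay below every earlier one, and Atf4 fell by 0.83 on the log2 scale (SE 0.18, adjusted p = 0.0113 by edgeR). Xbp1, the factor of the IRE1 arm, had 70.0, 109 and 144 CPM in the later libraries, against 156, 184, 155 and 143 CPM in the earlier ones, and fell by 0.52 (SE 0.16, adjusted p = 0.0355), with library 1100 above library 852. Gene counts do not separate spliced from unspliced Xbp1. Of the sensors, Atf6 rose by 0.71 (adjusted p = 0.0165), while the fold changes of Eif2ak3 and Ern1 were -0.03 ± 0.18 and 0.00 ± 0.19.

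**Figure D3:**
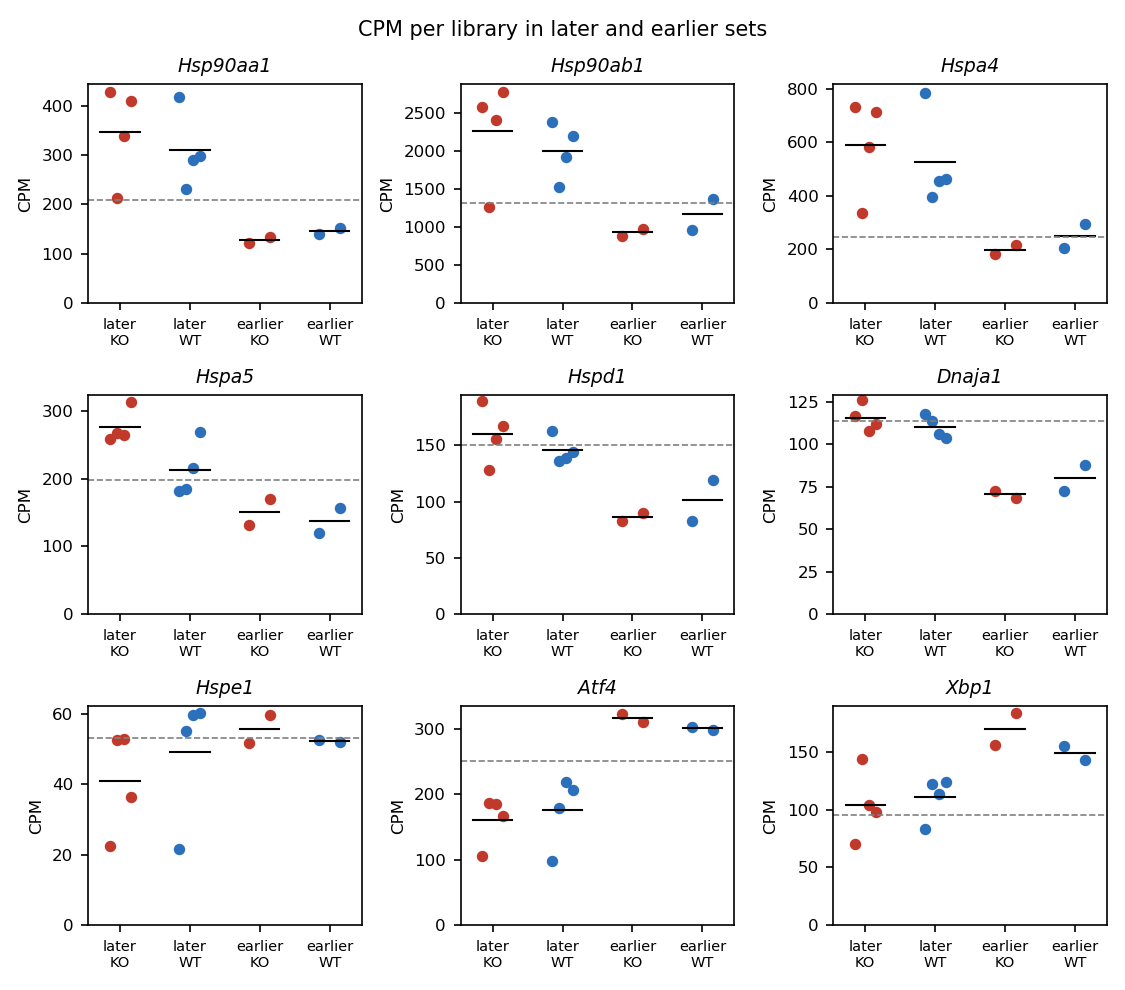
CPM of 9 members in each library, with later libraries left of earlier ones, KO in red and wild type in blue; black bars are group means and the dashed line is the single input. The HSP90, HSP70 and HSP60 transcripts are higher and Atf4 and Xbp1 lower in the later libraries, whereas Hspe1 is low in a few later libraries only.

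How far these calls rest on single libraries differs by gene. Hsp90aa1, Dnaja1, Hspa5, Hspa4, Hspd1, Hsp90ab1 and Atf4 were called in each of 12 fits that left out 1 library. Hsp90b1, Hspa9 and Atf6 were called in 10, and Hsph1 in 9. Xbp1 was called in 6, and Hspa1b, P4hb and Hspa2 in 4 each. The number of members called higher was 6 without library 683, 7 without 682 and 8 without 855, against 12 without the fourth earlier library, 852, and 10 to 14 when a later library was left out. When the non-neuronal score entered the model, 5 members were called (14.3%), all higher, against 1.97% of all genes higher and 1.30% lower: Hsp90aa1 (0.75), Dnaja1 (0.61), Hspa5 (0.70), P4hb (0.58) and Hspa4 (0.73). Neither Atf4 nor Xbp1 was.

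Marker levels moved with this contrast. The 10 astrocyte markers summed to 202 to 2010 CPM in the later libraries and 173 to 317 CPM in the earlier ones, and 9 of the 10 were called higher. The oligodendrocyte markers summed to 156 to 1482 CPM later and 178 to 298 CPM earlier, with 2 of 10 called. Of the tested endothelial markers 4 of 9 were called higher (median log2 fold change 2.51) and of the microglia markers 1 of 8. The endothelial markers summed to only 37.8 to 91.5 CPM later and 39.5 to 45.1 CPM earlier, with overlap. Cldn5, Tek, Slco1a4, Ly6c1, Emcn and Cdh5 of that list were at 0 in at least 1 IP library, so its median fold change includes markers near the floor. Of the GABAergic neuron markers 1 of 8 was called higher and 3 lower (median -0.85). The 14 cholinergic markers summed to 4709 to 10309 CPM later and 8302 to 9779 CPM earlier, with 2 called lower. The part of these markers in the members' differences was not tested beyond the fits given here.

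To see how members move with these markers, the non-neuronal score was fitted as a term beside library set and genotype. This test was added after the values were seen. By edgeR 2508 of 14317 genes (17.5%) were higher and 1622 (11.3%) lower with the score, and of the 35 members 10 (28.6%) were higher and 2 (5.71%) lower. Besides the ER sensor Atf6, the higher ones were cytosolic and mitochondrial chaperones: Hsp90aa1 at 0.69 ± 0.10 per unit of score (log2, SE, adjusted p = 0.000364), Hspa4 at 0.76 ± 0.13, Hspa9 at 0.60 ± 0.11, Hspa2 at 1.07 ± 0.21, Hsph1 at 0.72 ± 0.14, Hsp90ab1 at 0.63 ± 0.14, Hspb1 at 1.95 ± 0.52, Hspd1 and Hspa8. No ER folding member was called, and 10 of 13 had a coefficient below 0. Xbp1 fell by 0.44 per unit of score (SE 0.12, adjusted p = 0.0133) and Hspe1 by 0.75 (SE 0.20, adjusted p = 0.0151). Without libraries 1099, 1102 and 1091, which have the highest scores, 0 of 34 members were called, against 928 genes (6.51%), and at an unadjusted p below 0.05 there were 8 members (23.5%) against 25.6% of genes. The same libraries had the lowest Rn45s shares of the IP libraries (6.30%, 6.18% and 2.25%). Their shares of alignments that were not unique were also the lowest (30.8%, 34.2% and 25.2%). Library 1100, with a low score, came next at 6.44% and 35.2%. The part of these shares in the score results was not tested. Leaving out 1 library at a time, 6 members were called in all without 1099, 8 without 1100, whose score is low, and 11 to 13 without any other.

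Hspd1 and Hspe1, which share a promoter region and whose proteins form 1 chaperonin, went apart along the score. The coefficient of Hspd1 was 0.34 ± 0.11 (SE, adjusted p = 0.0319 by edgeR). Of 12 fits that left out 1 library, 8 called Hspd1 and 11 called Hspe1. Neither was called without libraries 1099, 1102 and 1091. Hspd1 had 189 CPM in KO library 1099 and 167 CPM in 1102, and 163 CPM in wild-type library 1091, the upper part of its range of 82.5 to 189 CPM. Hspe1 had 22.3, 36.2 and 21.7 CPM in the same libraries, its 3 lowest values, against 51.6 to 60.1 CPM in the other 9 IP libraries. The exon lengths of this pair are 2.42 and 0.774 kilobases, and the annotation names 5 pseudogenes of Hspd1 and 6 of Hspe1, to which reads may be lost. Length differed along both contrasts over all genes. In the later libraries, genes called higher had a median exon length of 5.36 kilobases and genes called lower one of 2.22, against 3.37 for all genes tested. With the score the medians were 5.04 for genes called higher and 2.40 for genes called lower. Members called higher in the later libraries had a median of 3.05 kilobases, the 2 called lower 2.06 and the 20 not called 2.43. The part of transcript length in these differences was not tested.

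**Figure D4:**
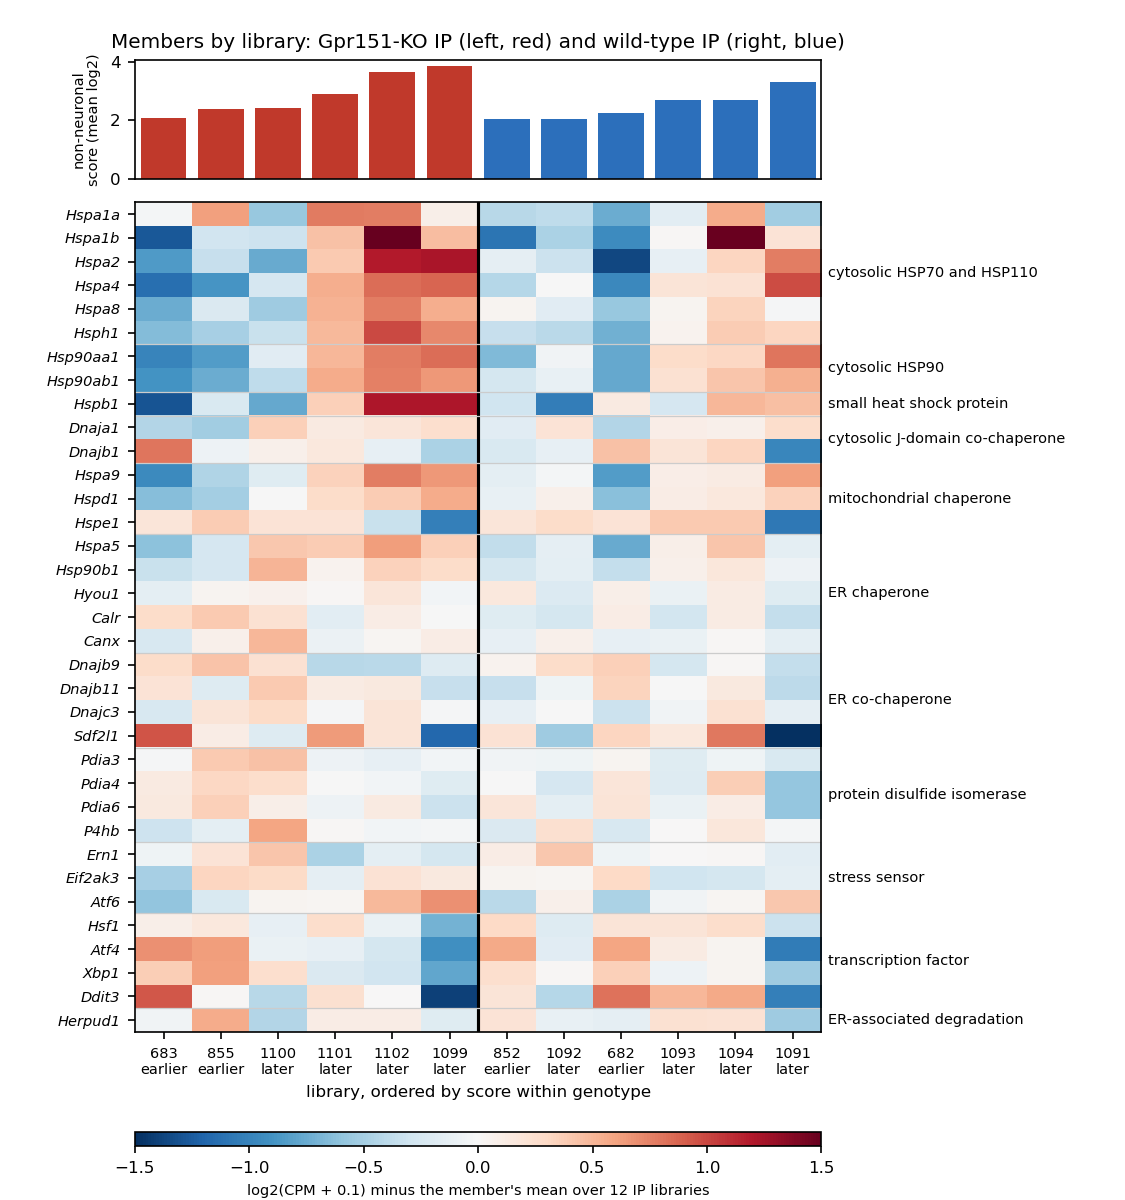
Members (rows, by role) in the 12 IP libraries, Gpr151-KO left and wild type right, ordered within genotype by the non-neuronal score in the bars above; colour is log2(CPM + 0.1) minus the member's mean and saturates at the ends of the scale. Most HSP70, HSP90 and mitochondrial chaperone rows other than Hspe1 redden toward high scores in both genotypes, while the rows of ER chaperones and disulfide isomerases vary less.

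In the IP the group stood close to the input. With 1 input library the comparison goes by size alone. Enriched means that all 6 IP libraries of a genotype had at least 2 times the input after adding 1 CPM and depleted that all had at most the inverse, among genes with 5 CPM in the input or as the IP mean. In KO IP 389 of 11399 genes were enriched (3.41%) and 810 depleted (7.11%), and in wild-type IP 538 of 11434 (4.71%) and 1274 (11.1%). In either genotype 33 members passed the filter, all but Hspa1b and Hspb1, and 0 were enriched and 0 depleted. The median ratio of each of these 33 lay within 1 of 0 on the log2 scale, against 74.8% of genes in KO IP and 72.1% in wild-type IP. The median over the members was -0.04 in KO IP and -0.12 in wild-type IP, against -0.11 in KO IP and -0.07 in wild-type IP over all genes.

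The ratios farthest from 0 were modest and mostly varied with the library. Hsf1 had a median log2 ratio of 0.69 in KO IP and 0.89 in wild-type IP, with all 6 wild-type libraries above the input, by 0.38 to 0.99. Hyou1 was above input in every library, by 0.52 to 0.84 in KO IP (median 0.69) and 0.45 to 0.82 in wild-type IP (median 0.66), at 69.9 to 87.6 CPM in KO IP and 66.6 to 86.3 CPM in wild-type IP, against 48.4 CPM in the input. It was the steadiest of the members and also the only one that edgeR, with the input's spread taken from the IP libraries, called over input (adjusted p = 0.0253 in KO IP and 0.0239 in wild-type IP), 2.86% of members against 5.26% of genes in KO IP and 7.25% in wild-type IP, a fit that assumes the single input varies as IP libraries do. Hspa4 had a median of 0.85 in KO IP and 0.79 in wild-type IP, with ranges of -0.43 to 1.57 in KO IP and -0.26 to 1.68 in wild-type IP that span 0. Below the input was the median of Hspa1a, at -0.09 in KO IP and -0.72 in wild-type IP. That of Hspa2 was -0.46 in KO IP and -0.61 in wild-type IP, and that of Hsph1 -0.38 in KO IP and -0.61 in wild-type IP. The sensor Ern1 was below the input in all 12 IP libraries (medians -0.55 in KO IP and -0.45 in wild-type IP).

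Hspb1, which missed the filter on low values, had the lowest median ratio to the input. It had 0.0504 to 0.759 CPM in KO IP and 0.0806 to 0.422 CPM in wild-type IP, against 1.97 CPM (87 counts) in the input, so every IP library lay below it. Without that filter it was depleted in wild-type IP. The input was counted on another list, of 37328 symbols, with 3.98% of alignments ambiguous against 0.581% to 1.36% in the IP libraries, and the part of this in the ratios was not tested.

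**Figure D5:**
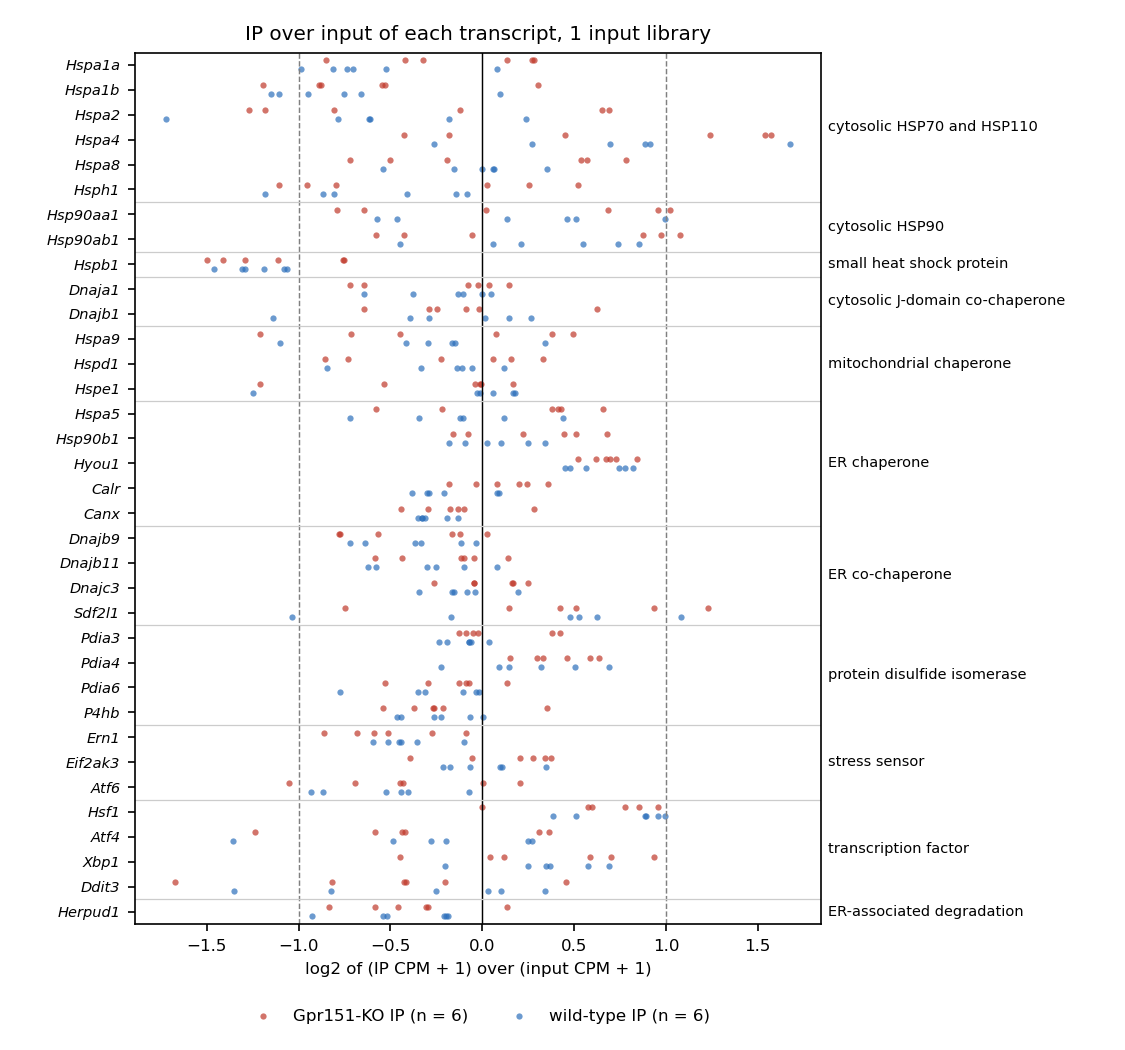
Log2 ratio of each IP library to the single input after adding 1 CPM, for the 35 members, Gpr151-KO above wild type; dashed lines mark 2-fold. Every member has IP libraries inside the dashed lines except Hspb1 in wild type, Hyou1 lies right of 0 in all 12 libraries, and the cytosolic chaperones span 0.

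Other genes of these pathways were read from 9 lists holding 187 genes that are not members. Between genotypes 175 were tested and 0 called, with 2 at an unadjusted p below 0.05 and a median log2 fold change of 0.00. Of these 175 genes 88 were above 0, so they did not share the lean of the members. The smallest p belonged to Cdnf, an ER-resident trophic factor, at 2.37 ± 0.910 CPM in KO IP and 3.64 ± 0.865 CPM in wild-type IP (SD, n = 6 each), with a log2 fold change of -0.67 (adjusted p = 0.999 by edgeR). Eif2ak2 (PKR), another kinase of eIF2 alpha, was at 16.0 ± 4.98 CPM in KO IP and 20.8 ± 4.30 CPM in wild-type IP. Sel1l, part of the ER degradation complex, was at 173 ± 30.6 CPM in KO IP and 143 ± 21.5 CPM in wild-type IP. None of the 34 tested genes of the integrated stress response, which include targets of Atf4, was called, and 25 were above 0 with a median of 0.07.

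Across sets the pathway genes moved about as often as genes in general. In the later libraries 21 of 178 (11.8%) were called higher and 19 (10.7%) lower, beside the 12.3% and 10.1% given above. The CCT chaperonin and prefoldin list, whose products fold actin and tubulin, had 3 of 14 called higher and 1 lower (median 0.35), and the ER-associated degradation list 3 of 27 higher and 7 lower (median -0.21). Among those with the smallest p, Ube2j2, a ubiquitin-conjugating enzyme of the ER, was at 4.63 ± 0.966 CPM in the later libraries and 26.2 ± 3.94 CPM in the earlier ones (SD, n = 8 and 4), and Ubxn6, a cofactor of the segregase p97, at means of 125 CPM later and 42.6 CPM earlier. The counting list changed between these sets. With the score 26 of 175 (14.9%) were higher and 27 (15.4%) lower, led by Map3k5 (ASK1), a kinase downstream of IRE1, Hspa4l, a relative of Hspa4, and Slc7a11, the cystine transporter, all higher. The shares over all genes were 17.5% higher and 11.3% lower with the score. In the integrated stress response list 12 of 34 were higher with the score and 1 lower. The ER-associated degradation list went the other way, with 2 of 27 higher and 10 lower.

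Against the input, 161 of these genes passed the filter and 4 were enriched and 7 depleted in wild-type IP. Among all genes 4.71% were enriched and 11.1% depleted there, so the pathway genes were called less often than genes in general. Hspb6, a small heat shock protein, averaged 176 ± 24.7 CPM in wild-type IP (SD, n = 6), against 32.3 CPM in the input, and Cryab, another, 18.6 ± 8.37 CPM, against 341 CPM. The list of small heat shock proteins thus held genes on both sides, unlike the 33 members. Dnaja4, a J-domain protein, averaged 58.5 ± 11.1 CPM in wild-type IP, against 17.9 CPM in the input, and Hspa1l, an HSP70 protein encoded beside Hspa1a, 6.13 ± 0.792 CPM, against 1.56 CPM. Aarsd1 averaged 64.3 ± 13.8 CPM in wild-type IP, against 0.567 CPM in the input, and Ubb, a polyubiquitin gene, had a median log2 ratio of -4.84 over its 358 CPM in the input. The other depleted genes were Dnajb14, Slc7a11, Ero1lb, Creb3l2 and Psat1. The input was counted on a list of 37328 symbols and the IP libraries on lists of 24454 or 32531. The part of the counting list in these ratios, also in the largest ones, was not tested.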

How the data were processed

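Each library's deposited table holds raw counts by gene symbol. Tools named in the submitters' processing notes are STAR 2.3.0e, HTSeq and DESeq2, with the build mm10. Annotation and strand setting of the counting: not given in the sources used here. Per the labels' protocols, cDNA was amplified by the SPIA method of the Ovation V2 kit. The lines that sum reads outside genes entered no library size or test; their not-unique and ambiguous shares are given as descriptions.

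Tests used edgeR 4.0.16 in R 4.3.3 on the counts of all 23857 shared symbols (filterByExpr, TMM, robust quasi-likelihood, Benjamini-Hochberg adjustment over all genes tested, threshold 0.05), with DESeq2 1.42.0 as the alternative. The fit was tested on simulated data. SE and 95% intervals come from the F statistic. Exon lengths and positions are those of GENCODE M21 (GRCm38). Members, lists and tests were chosen with earlier results of these data known. Members past a threshold were named, and per comparison the 5 with the smallest p and the 5 with the largest change; of the other pathway genes, the 3 with the smallest p, of which 1 is not reported here. Replicates are separate pools of mice.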

Additional observations from a re-analysis of the deposited data

Results flagged for a closer look

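Over the 70 groups of 6 libraries (35 members in 2 genotypes), 5 values lay far from the other 5 of their group, where chance gives about 1 in 20 groups. Hspa1b had 2.39 CPM in KO library 1102, against 0.202 to 0.905 CPM in the other KO libraries, and 1.94 CPM in wild-type library 1094, against 0.241 to 0.740 CPM in the other wild-type libraries. In the same library 1094 its near-identical neighbour Hspa1a had 6.44 CPM, against 2.55 to 3.89 CPM in the others. P4hb had 71.4 CPM in KO library 1100, against 38.0 to 47.9 CPM in the other KO libraries. Hspe1 had 21.7 CPM in wild-type library 1091, against 51.9 to 60.1 CPM in the other wild-type libraries.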

How the results depend on the processing

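No paired analysis was possible because no replicate number is shared between the groups, beyond the library sets, which are a term of the genotype fit; without that term 2 genes and 0 members were called. Between genotypes no alternative called a member. The number of genes called was 2, and it was 12 by DESeq2, 1 with at least 1 CPM in 6 libraries, 0 in the later libraries only, 1 without libraries 1091, 1099 and 1102, and 0 to 2 when each replicate was left out (0 without 683). The median member fold change then ran from 0.07 to 0.14. With the score in the model the fold changes of Hspa2, Hspa1b and Hspb1 turned to -0.09, -0.15 and -0.54, and that of Hspa1b to -0.21 without libraries 1091, 1099 and 1102 and to between -0.09 (without replicate 1102) and 0.77 when each replicate was left out; the cause was not tested. The other 158 of 163 alternative values of 8 named members kept their direction. The interaction gave 0 genes by edgeR and 2 by DESeq2. In later against earlier libraries all 269 alternative values of the 15 called members kept their direction and 54 lost the call. Instead of 3316 genes, 483 were called with the score in the model (5 members higher and 0 lower), and 1626 without the 3 libraries (1 member lower). Leaving out each replicate gave 904 to 4271 genes (904 without 683, 1031 without 855, 1093 without 682, 1991 without 1102 and 2103 without 1091), 6 to 14 members higher and 1 to 2 lower, and for the score 2350 to 4230 genes (2350 without 1100 and 2373 without 1099), 6 to 10 members higher and 0 to 3 lower. Without the 3 libraries the score called 928 genes and 0 members either way. Over input, 1 member (Hspb1) was depleted without the filter and 1 (Hyou1) was enriched in the pooled edgeR fit. Depth limits Hspb1 and Hspa1b, whose lowest libraries held 2 and 6 counts.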
